A study of Rattus norvegicus with 12 samples.

Results

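This set is the 56 genes, out of 26405 in the files, that stood at least 3 times higher in T cells from all 3 sites of the central nervous system (CNS) than in T cells from blood, without a large step between cerebrospinal fluid (CSF) and meninges. Members were chosen by their mean CPM (a gene's count scaled to a fixed total of gene counts per library). A member had a mean of 5 CPM or more in each of CSF, spinal cord meninges and CNS parenchyma, each mean at least 3 times the blood mean, and a meninges mean under 2 times the CSF mean. The levels against blood and the ratio of meninges to CSF are therefore a description of the choice and carry no test. The rule did not set parenchyma against CSF or meninges, and each gene was tested in those comparisons. It did limit falls, because the parenchyma mean had to be at least 3 times blood. A member could fall from CSF only by its ratio of CSF to blood divided by 3 (median 1.45-fold). Rises had no set limit, but the limit on meninges over CSF removed 15 genes. Their parenchyma means were 2.66 to 23.4 times their CSF means. How many members were higher rather than lower in parenchyma is therefore partly fixed by the choice and is given as a description.

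The 12 libraries came from CD4+ T cells labelled Tmbp, specific for myelin basic protein (MBP), a protein of the myelin sheath, in Lewis rats of wild type genotype with experimental autoimmune encephalomyelitis, an inflammation of the CNS. All cells expressed green fluorescent protein and were sorted in the cold on a flow cytometer. The 4 groups of 3 libraries each differed in the labels only by tissue, which was blood, CSF, CNS parenchyma or spinal cord meninges. The labels used here give no age, day of disease or treatment, and do not say whether a numbered library is 1 animal, so p-values measure the spread between libraries, which may be technical.

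In this disease model, T cells specific for myelin are activated in the periphery, enter the CNS through vessels of the meninges and the parenchyma, and meet antigen-presenting cells there. CSF bathes the meninges, so cells can pass between these places. T cells that have left the blood for an inflamed tissue are known to change the genes of activation, cytokine production, migration and metabolism. The files name genes only by Ensembl identifier, and the reference table pairs none of its 47357 rows with one, so 0 of the 56 members could be given a name, a function, a position or a promoter sequence. For the same reason the sorted cells could not be checked against markers of T cells or of other cell types. Only 4 identifiers are printed, and other members are referred to by their rank.

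Library totals over genes lay between 11277725 and 22056664 counts, which puts the floor of 3 counts at 0.136 to 0.266 CPM, for counting error only. All 56 members had counts in all 12 libraries and all 56 passed the filter on low counts that left 11498 genes to test. The entries aligned to several places, which were not counted for any gene, were 65.2% in blood number 3 and 61.4% in meninges number 2, against at most 43.9% in the rest. Meninges number 3 had counts for 18299 genes, against at most 16096 in the rest. Blood number 2 also stood apart: among the 8730 genes at 5 CPM or more in all CNS sites, 71 were more than 2 times higher in it than in both other blood libraries, against 2 for blood number 1 and 5 for blood number 3.

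Fewer genes passed all parts of the rule than were at least 3 times blood at a single site, and the difference was largest for parenchyma. Of the 8730 genes past the CPM minimum, 96 were at least 3 times higher in CSF than in blood, 125 in meninges and 187 in parenchyma. All 3 conditions held for 71 genes, which were 74.0% of the CSF list, 56.8% of the meninges list and 38.0% of the parenchyma list. These lists share the same 3 blood libraries. The limit on meninges over CSF then removed 15 genes. In those 15 the parenchyma mean was above the meninges mean throughout, with a median ratio of parenchyma to CSF of 5.57 (range 2.66 to 23.4), against a median of 1.18 among the 56 members.

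The members were present in blood rather than absent from it. Blood means ran from 0.685 to 385 CPM with a median of 9.59, and 38 of the 56 members had a blood mean of 5 CPM or more. The lowest count of any member in a single blood library was 8. The members' median level was 40.8 CPM for CSF, 44.4 CPM for meninges and 59.8 CPM for parenchyma. Together the members took 0.151% to 0.164% of gene counts in the blood libraries. In CSF they took 0.590% to 0.652%, in meninges 0.638% to 0.718% and in parenchyma 0.751% to 0.780%. Relative to blood the summed level was 3.98 times as high in CSF, 4.40 times as high in meninges and 4.90 times as high in parenchyma. Leaving out the most abundant member changed these ratios to 4.08, 4.44 and 4.95.

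A few genes made up most of that sum. The most abundant member supplied 23.6% of the members' summed level in the CNS libraries, the 5 most abundant 56.3% and the 10 most abundant 69.6%. The most abundant member stood at 393, 389 and 372 CPM in the blood libraries and at 1453, 1271 and 1511 CPM in CSF. In meninges it had 1797, 1389 and 1755 CPM and in parenchyma 2021, 1664 and 1804 CPM. No CNS library of it came near a blood library, and number 2 was the lowest in each CNS site. Only 33 of all genes in the files had a higher mean over the 9 CNS libraries. At the other end, 4 members had a CNS mean under 10 CPM, the lowest of them 6.36 CPM.

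The ratio to blood was moderate in most members. The lowest of the 3 site ratios was under 4 in 32 members, 5 or more in 15 and 10 or more in 1, with a median of 3.93. The median ratio to blood was 4.36 for CSF cells, 5.03 for meningeal cells and 5.63 for parenchymal cells. CSF had the lowest ratio in 32 members, parenchyma in 14 and meninges in 10. The member with the largest lowest ratio, 10.9, had 3.22, 4.47 and 4.15 CPM in blood and 50.3, 31.1 and 48.0 CPM in CSF. It had 55.9, 40.6 and 55.6 CPM in meninges and 54.5, 47.1 and 55.9 CPM in parenchyma. Its 3 CNS sites overlapped one another, and its blood libraries lay far below all of them.

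Every CNS library lay above every blood library in 55 of the 56 members, as it did for 12.1% of the genes tested. The rule used this contrast, so nothing is read from that count. The exception had 3.56 and 4.07 CPM in blood numbers 1 and 3 but 73.2 CPM in blood number 2. Its CSF libraries held 67.5, 133 and 91.9 CPM, its meninges libraries 61.7, 152 and 77.6 and its parenchyma libraries 93.1, 206 and 121. Number 2 was the highest library of this gene in all 4 groups.

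**Figure D1:**
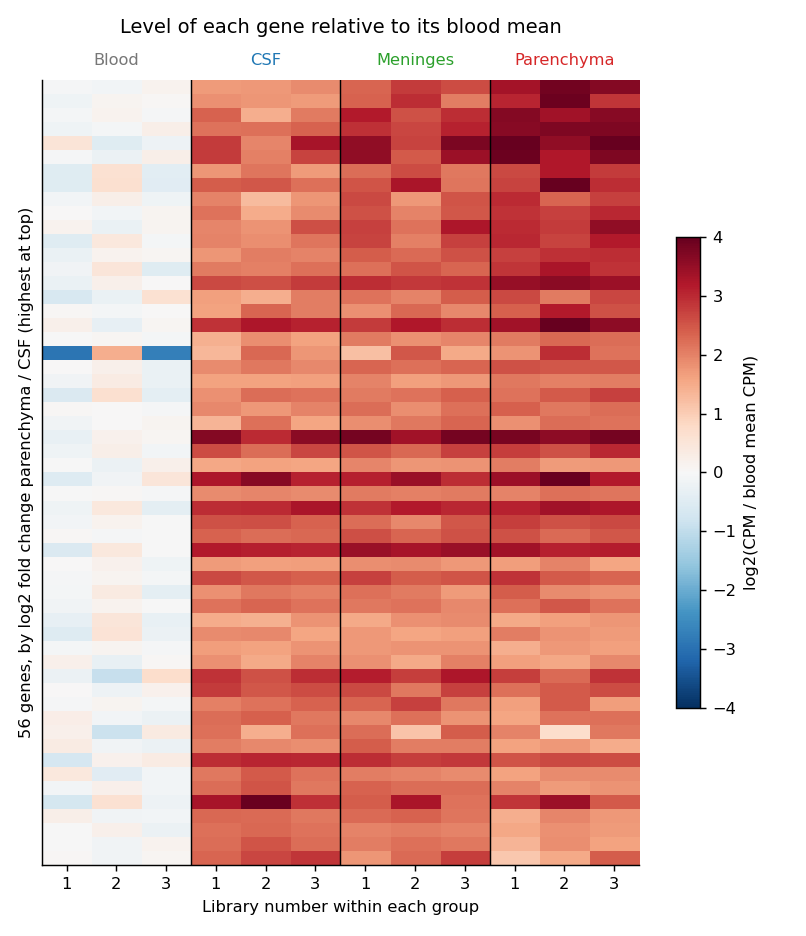
Each row is 1 of the 56 genes and each column 1 library, numbered 1 to 3 within each of the 4 tissues, with color giving log2 of CPM over the gene's blood mean. Rows are ordered by the fitted change from CSF to parenchyma, and all CNS columns are red because the rule asked for it. The row with dark blue in blood numbers 1 and 3 is the gene at 73.2 CPM in blood number 2.

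Near the thresholds the choice was a matter of small differences. The 3 members with the smallest lowest ratio to blood stood at 3.01, 3.01 and 3.06 times blood, and the nearest genes outside at 2.99, 2.98 and 2.97. Members closest to the CPM minimum had a lowest site mean of 5.87, 6.21 and 6.81 CPM, against 4.90, 4.89 and 4.73 CPM outside. The members closest to the limit on meninges over CSF had ratios of 1.88, 1.74 and 1.67, and the nearest genes outside 2.05, 2.12 and 2.27.

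Blood number 2 had a large part in which genes met the rule. Without it 92 genes met the rule, 51 of the 56 members among them, whereas leaving out any other single library gave 52 to 62 genes. In the 41 genes that met the rule only without blood number 2, that library was 1.09 to 102 times the mean of the other blood libraries, with a median of 3.93. In the 56 members the same ratio ran from 0.430 to 19.2 with a median of 1.12. A gene can meet the rule only without blood number 2 if leaving it out lowers the blood mean. A ratio above 1 in all 41 was therefore fixed by how they were found. The 56 members were chosen with that library included, so nothing is read from the contrast between the medians. Without both libraries with most entries aligned to several places, 52 genes met it, 50 of the members among them. What set blood number 2 apart was not tested.

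**Figure D2:**
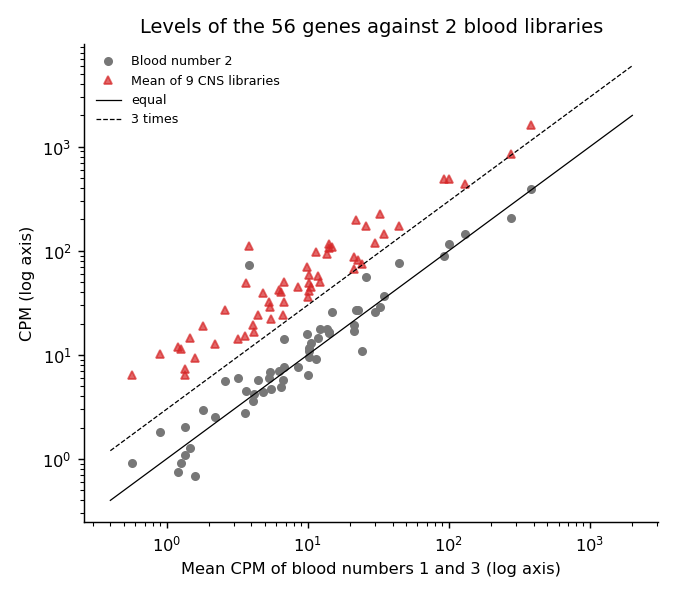
Points give, for each of the 56 genes, the CPM of blood number 2 (gray circles) and the mean of the 9 CNS libraries (red triangles) against the mean CPM of blood numbers 1 and 3, on log axes, with lines for equal and 3 times. Gray points scatter about the line of equality apart from 1 gene at 73.2 CPM, and the red points lie above the 3-times line or close to it.

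Levels within the CNS were close to each other in many members but not in all. The highest site mean was under 1.5 times the lowest in 35 members and under 2 times in 46, while it was 2 times or more in 10. The widest spread was 3.61 times. The ratio of meninges to CSF, which the rule bounded from above only, ran from 0.591 to 1.88 with a median of 1.13, and the meninges mean was above the CSF mean in 39 members and below it in 17. The order CSF, meninges, parenchyma from low to high was seen in 26 members and the reverse order in 7. The label of genes raised alike therefore fitted part of the set. The comparisons of parenchyma with the other sites show which members were called different, but not which were equal.

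Relative to T cells of the CSF, T cells of the parenchyma had higher levels of 23 members and lower levels of 5, by edgeR's quasi-likelihood test with Benjamini-Hochberg adjustment over all genes (adjusted p under 0.05). Over all genes tested, 17.1% were called higher and 15.6% lower in parenchyma. The members' shares were 41.1% and 8.93%. The rule limited falls and, through the limit on meninges over CSF, also removed genes with large rises. Nothing is therefore read from the balance between the shares. In 12 of the 23 the change was more than 2-fold. None of the 5 was lower by more than 2-fold, a fall that the rule left possible in only 12 of the 56 members. The median log2 fold change was 0.26 over the members (quartiles -0.06 and 0.88) and -0.005 over all genes tested. With blood number 2 left out of the fit, 30 of the 56 members were called, and 27 of these were also called with all libraries. Over all genes 3744 were called, against 3759 with all libraries. The set of members was not chosen again for this fit. Blood libraries enter neither mean in the comparison of parenchyma with CSF, but they do enter the estimate of spread that all 4 groups share. Leaving out blood number 2 can change the calls through that spread. With the members kept, it cannot show whether the calls rest on that library through the choice of members, and nothing is read from it. In bulk RNA, more cells with a transcript and more transcript per cell cannot be told apart.

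The numbers 1 to 3 were taken to pair the libraries, because same-numbered libraries of these sites deviated together over all genes. With the number as a block in the fit, 28 members were higher and 10 lower in parenchyma than in CSF, against 21.7% and 21.5% of all genes. All 28 members called without the block were called with it.

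The levels that follow are grouped by the calls made without the block. The 23 genes called higher had a median level of 9.95 CPM in blood and 34.0 CPM in CSF, and of 43.0 CPM in meninges and 67.0 CPM in parenchyma. The 5 genes called lower went from 11.4 CPM in blood to 53.2 CPM in CSF, 45.9 CPM in meninges and 36.9 CPM in parenchyma (medians). For the 28 genes called in neither direction the CSF, meninges and parenchyma medians were 42.6, 44.1 and 42.9 CPM, against 7.95 CPM for blood.

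A gene that missed the threshold was not thereby shown to be equal in CSF and parenchyma. Of the 28 such genes in the fit without the block, the 95% interval of the fold change lay within 1.5-fold either way in 16 and within 2-fold in 25. In the remaining 3 the interval reached past 2-fold, the widest from -1.08 to 2.17 on the log2 scale. That widest interval belonged to the gene at 73.2 CPM in blood number 2. Its SD was 149% of its mean in blood, against 34.2% in CSF and 42.2% in parenchyma, and the fit used 1 spread per gene. With the block its SE went from 0.75 to 0.41, and it was still not called. In the other genes with such wide intervals the SE went from 0.37 to 0.10 and from 0.33 to 0.11. With the block these were called lower in parenchyma than in CSF (edgeR adjusted p = 0.0155 and 0.00399).

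Parenchyma and meninges differed in fewer members. In parenchyma 11 members were higher and 4 lower than in meninges, against 6.58% and 5.37% of all genes, which are 19.6% and 7.14% of the members. Here too the rule limited falls, to a median of 1.68-fold. With the block these were 22 and 6 members, against 11.3% and 9.77% of all genes, and all 15 genes of the unpaired fit were among them. The median log2 fold change was 0.26 over the members and -0.004 over all genes. Of all genes 757 were higher and 618 lower. With libraries scaled by their size alone these counts were 568 and 906, whereas the members stood at 9 and 5. The number of members called fell to 6 or 7 without meninges number 1 or 3, and to 9 without meninges number 2, parenchyma number 1 or parenchyma number 3. Over all genes the number called went from 1375 to 899, 739, 883, 888 and 1402 in these 5 settings, in the same order. The fall was thus not particular to the members, except that all genes called did not fall without parenchyma number 3.

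Without the block 26 members were called in neither comparison of parenchyma, and with it 15. The share of all genes called in neither was not counted, so nothing is read from these numbers.

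**Figure D3:**
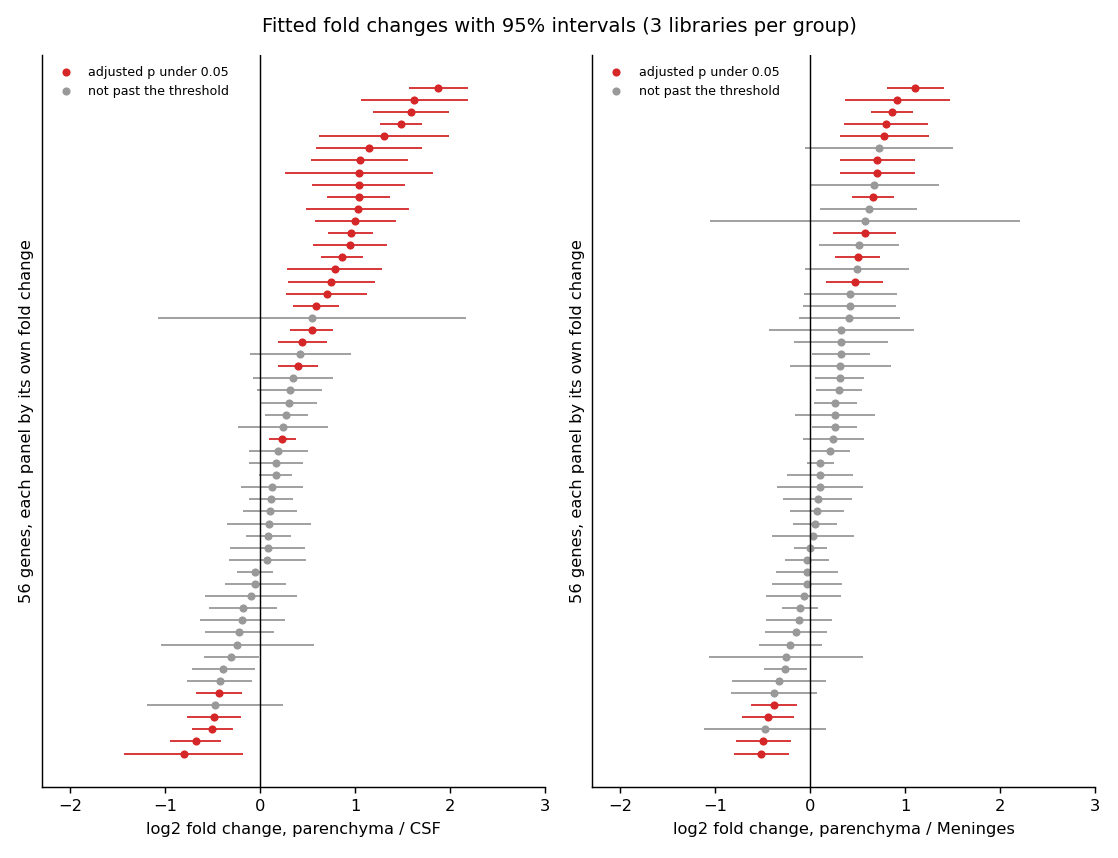
Fitted log2 fold changes of the 56 genes, parenchyma over CSF on the left and over meninges on the right. Points have 95% intervals from the fit without the block (3 libraries per group). Genes past an adjusted p of 0.05 (28 on the left, 15 on the right) are red, and most red points lie to the right of 0.

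ENSRNOG00000020106 had the largest rise from CSF to parenchyma. Its blood libraries held 30.5, 28.8 and 34.7 CPM and its CSF libraries 102, 105 and 117 CPM. Meninges libraries had 156, 216 and 190 CPM, and parenchyma libraries 315, 453 and 400 CPM. No 2 groups overlapped, and number 2 was the highest library in meninges and in parenchyma. Parenchyma was higher by 1.88 (log2, SE 0.14, edgeR adjusted p = 1.30e-06) than CSF and by 1.11 (SE 0.14, adjusted p = 0.000421) than meninges. Within numbers, parenchyma was 3.08, 4.33 and 3.41 times CSF and 2.02, 2.10 and 2.11 times meninges. The ratio to meninges varied less between numbers than the levels did.

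ENSRNOG00000019822 had the second largest rise from CSF to parenchyma. It stood at 5.86, 7.05 and 6.71 CPM in blood and at 23.4, 22.1 and 21.4 CPM in CSF. In meninges it reached 33.9, 50.3 and 27.3 CPM, and in parenchyma 54.4, 100.2 and 47.8 CPM. Parenchyma lay above CSF in all libraries, while meninges number 2 overlapped the parenchyma libraries. The rise was 1.62 (log2, SE 0.26, edgeR adjusted p = 0.000437) over CSF and 0.91 (SE 0.26, adjusted p = 0.0345) over meninges. With the block the latter was 0.89 (SE 0.15, adjusted p = 0.000886). Without parenchyma number 2, which held 100.2 CPM, it was 0.50 (adjusted p = 0.146), and without meninges number 1 or 3 its adjusted p was 0.110 or 0.143.

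ENSRNOG00000043416 had the largest fall from CSF to parenchyma among members whose libraries did not overlap. Its levels were 28.4, 25.6 and 31.4 CPM in blood and 133, 162 and 135 CPM in CSF. Meninges libraries stood at 118, 132 and 122.8 CPM, and parenchyma 73.2, 104 and 86.8 CPM. All parenchyma libraries were below all CSF and meninges libraries and more than 2 times the blood libraries. It fell by 0.68 on the log2 scale (SE 0.13, edgeR adjusted p = 0.00116) from CSF and by 0.45 (SE 0.13, adjusted p = 0.0352) from meninges. Leaving out either parenchyma number 1 or 3, or any single meninges library, moved the latter above the threshold, with adjusted p between 0.0588 and 0.115. With the block and all libraries, the difference between parenchyma and meninges was -0.45 (SE 0.09, edgeR adjusted p = 0.00355).

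ENSRNOG00000013554 had the second largest such fall. It stood at 11.4, 13.1 and 9.72 CPM in blood, and at 52.7, 55.97 and 51.1 CPM in CSF. Meninges had 45.6, 47.0 and 45.2 CPM and parenchyma 33.2, 40.8 and 36.9 CPM. The 4 groups did not overlap. From CSF to parenchyma it fell by 0.50 on the log2 scale (SE 0.10, edgeR adjusted p = 0.00215). The difference between parenchyma and meninges was -0.26 (SE 0.10, adjusted p = 0.122), and -0.27 with the block (SE 0.07, adjusted p = 0.0211).

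**Figure D4:**
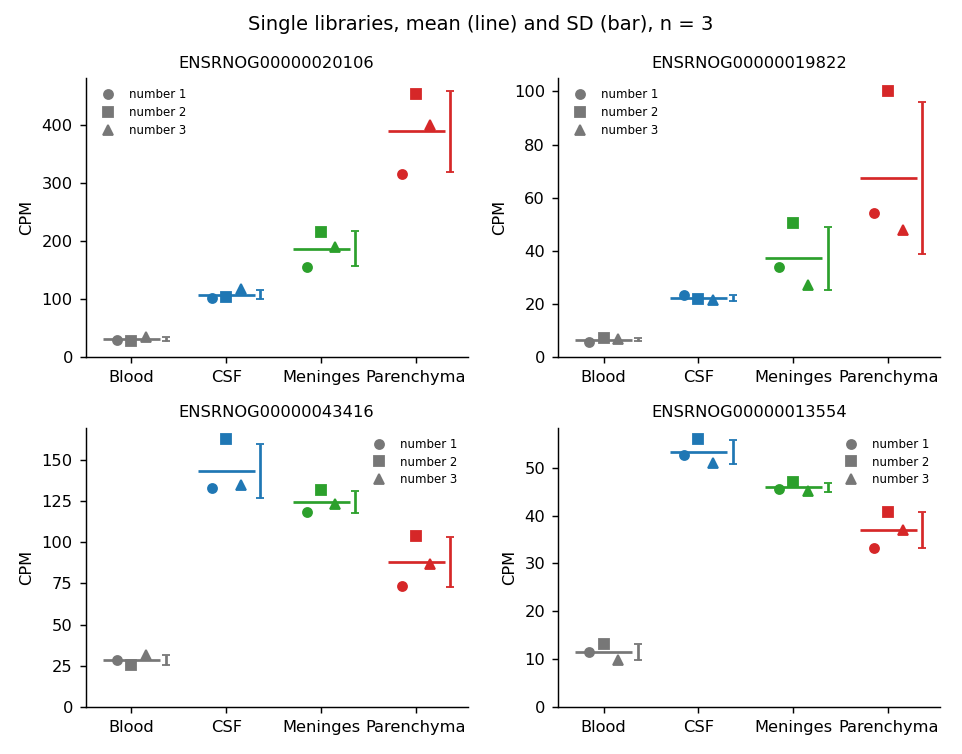
CPM of the 4 genes printed by identifier in each library (circle, square and triangle for numbers 1, 2 and 3), with the group mean as a line and the SD as a bar (n = 3), on axes that start at 0. The upper pair climbs from CSF to parenchyma, to 315, 453 and 400 CPM in the first, and the lower pair is highest in CSF.

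Libraries of the same number varied together in the members. The deviations of the 56 genes from their site means correlated at 0.789, 0.913 and 0.866 between meninges and parenchyma for numbers 1, 2 and 3, and at 0.595, 0.693 and 0.675 between CSF and parenchyma. Between blood and parenchyma the correlations were 0.139, 0.444 and 0.265. Over all genes tested, on TMM-scaled log2 CPM, they were 0.274 to 0.450 between meninges and parenchyma and 0.276 to 0.384 between CSF and parenchyma. Between blood and parenchyma they were 0.193 to 0.323. These are correlations across genes, which are not independent replicates and which share their libraries' depth, and the 3 deviations of a gene in a site sum to 0. Number 2 was the highest library in all 3 CNS sites in 10 members and the lowest in 16, so it stood at 1 end in 26 of the 56. Number 1 was the highest in 6 and the lowest in 9, and number 3 the highest in 10 and the lowest in 4. These counts were not made over all genes, so nothing is read from them.

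In 3 members number 2 was more than 1.5-fold under the mean of the other numbers in all CNS sites, and in 2 members more than 1.5-fold above it. A member of the former kind, picked after its values were seen, had 23.0, 11.01 and 25.3 CPM in blood and 90.8, 53.9 and 90.8 CPM in CSF. In meninges it had 93.3, 43.3 and 105 CPM and in parenchyma 78.1, 32.1 and 85.1 CPM. A member of the latter kind, with 0.747, 1.84 and 1.06 CPM in blood, was instead high in number 2, at 11.97, 18.7 and 9.10 CPM in CSF, 6.47, 11.6 and 5.45 in meninges and 8.78, 13.0 and 6.68 in parenchyma. The step between numbers in each CNS site is how these members were picked, so nothing is read from it. In both, blood number 2 differed from the other blood libraries in the same direction. These are picked examples, and the blood levels of the other members of the former kind are not given, so nothing is read from that either. The members' median biological coefficient of variation, the spread between libraries beyond counting error, was 13.7%, against 9.33% over all genes tested.

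**Figure D5:**
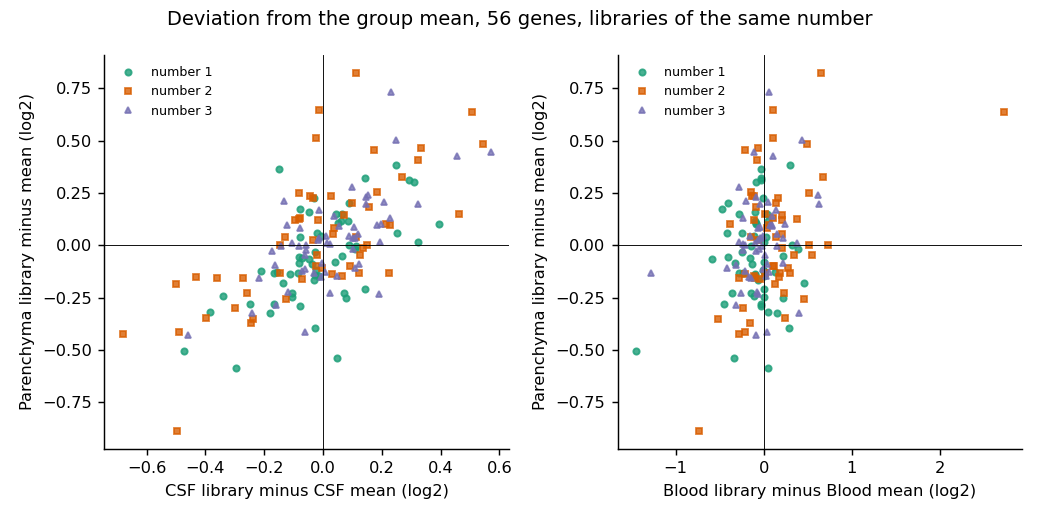
For each of the 56 genes and each library number, the deviation of the parenchyma library from the parenchyma mean is plotted against that of the CSF library (left) or the blood library (right) of the same number, in log2 units of CPM + 0.5. Points on the left run from lower left to upper right (correlations 0.595 to 0.693), and those on the right do so less closely (0.139 to 0.444).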

How the data were processed

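Messenger RNA libraries were made with an Illumina TruSeq protocol, per the labels' protocols. The deposited files hold whole-number counts of reads per gene that the authors did not normalize, in 1 file per library. Per the submitters' processing notes, DESeq2, HTSeq, SAMtools, STAR and CASAVA 1.8.2 were used, with no role stated. The genome build, annotation and strand setting were not given in the sources used here. Reads with several alignments were not counted, which lowers genes with near-identical copies, and overlapping antisense genes may be mixed. The 5 summary lines of each file were left out of library sizes. They held 15.5% to 21.9% of entries outside any gene.

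Members were found on plain CPM. The members and all lists were chosen with earlier results of these data known. Gene lists, markers and promoter motifs that were planned need gene names and were not used. The planned rule for naming genes was cut to the members with the 2 largest rises and the 2 largest falls from CSF to parenchyma, among those called with libraries that did not overlap; this was decided after the files were read.

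Counts were tested in R 4.3.3 with edgeR 4.0.16 (filterByExpr, TMM, quasi-likelihood F test) in 1 fit of all 12 libraries with the tissue as the only term, and Benjamini-Hochberg adjustment over 11498 genes. Standard errors and 95% intervals were derived from the F statistic. The fit was also run on simulated counts drawn independently for each library. That setting lacks the shared deviations of same-numbered libraries, so nothing is read from it here. Over all genes, deviations of same-numbered libraries correlated at 0.276 to 0.384 between CSF and parenchyma and at 0.274 to 0.450 between meninges and parenchyma, each above 0.1, so the numbers in the titles were taken to pair these libraries and the fit with the block is given beside the main one. The block was applied to all 12 libraries, blood included. Between blood and meninges the correlations were 0.219, 0.252 and 0.0766 for numbers 1 to 3, so number 3 lay under 0.1. Libraries of different number reached 0.219 there. Alternatives were DESeq2 1.42.0, library sizes alone, no filter, the block, an adjusted p under 0.01, other limits in the rule and each library left out.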

Additional observations from a re-analysis of the deposited data

How the results depend on the processing

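The number of genes meeting the rule was 86 at 2.5 times blood and 24 at 4 times blood, and 52 to 92 with a library left out in turn, where 92 came without blood replicate 2. Members called between parenchyma and CSF numbered 28, 23 to 30 with a library left out and 38 with the replicate block, and their median log2 fold change was 0.20 to 0.28 with a library left out. Genes called in that comparison fell from 3759 to 2276 at an adjusted p under 0.01. Between parenchyma and meninges, members called numbered 15, 6 to 17 with a library left out, 31 without the filter, 28 with the replicate block, 3 at an adjusted p under 0.01 and 8 without blood replicate 3 and meninges replicate 2, a setting chosen after seeing the data. All genes called there numbered 1375, 739 to 1739 with a library left out, 2428 with the replicate block and 539 at an adjusted p under 0.01. The members' median log2 fold change there was 0.26, and 0.21 with library size alone, 0.28 without the filter, 0.25 with the replicate block and 0.16 to 0.26 with a library left out. Lower counts at a stricter p follow from its construction; for the other settings the cause was not tested. What depth limits cannot be read from the members, which were chosen for their level; the lowest count of one in a blood library was 8.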
